A study of Mus musculus with 6 samples.

Results

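Gene expression in the submandibular salivary gland of mice was compared between glands taken 24 h and 6 h after irradiation with 5 Gy, to describe how the early response had shifted by the next day. The comparison rests on 4 of the 6 RNA sequencing libraries of the series, 2 at each time. The animals were of Wild type genotype and C57BL/6 strain, and the remaining 2 libraries, from control glands labelled T0, are given beside the irradiated ones as a reference level (control). Of 24394 genes with a symbol, 11409 were kept, namely those with at least 0.2 FPKM (fragments per kilobase of exon, relative to the mapped fragments of the library) in each of the 4 libraries and a mean of at least 1 FPKM. No label states whether libraries of a group came from different animals, so the p-values below measure the spread between these samples, which may be technical.

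The time of sampling and the way the values were made cannot be told apart in this comparison. In the 24 h columns 99.99% of the values above 0 were written with at most 6 digits, against 0% in the 6 h and control columns. Low values of the control and 6 h libraries lay on steps of whole fragments, which with exon lengths gave depths of about 12100000 and 12600000 fragments at 6 h and 12300000 and 11800000 in control, an estimate on which 37 of 691 genes with such steps met exactly. The ratios of the 24 h libraries to replicate 1 of 6 h had no common value, the most frequent being shared by 2 of 2919 and 2 of 3090 genes. That comparison spans both forms of values, so it cannot show whether the 24 h values have steps of their own. The depth at 24 h is unknown. All levels below are scaled FPKM, that is, FPKM divided by a median-of-ratios factor over the kept genes (0.898 and 0.929 at 6 h, 1.11 and 1.09 at 24 h, 0.926 and 0.921 in control), and pairs of values are given in the order replicate 1 and replicate 2. Fold changes are on the scale of log2(scaled FPKM + 1), 24 h minus 6 h, given ± their standard error (SE), and this scale understates changes of low genes.

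Libraries of one group stood apart in some genes of neighbouring tissue, and in others given below. Amy1, the amylase of the parotid gland, was at 27.2 and 6094 at 6 h and 1454 and 15674 at 24 h, and Muc19, a mucin of the sublingual gland, at 155 and 172 and 2.02 and 137. The summed level of 16 adipocyte genes was 136 and 678 at 6 h and 617 and 362 at 24 h. Krt10, a keratin of the epidermis, was at 1.05 and 0.9 at 6 h and 9.69 and 118 at 24 h, and 22 measured genes of keratinized epidermis summed to 5.64 and 3.38 at 6 h and 62.5 and 362.1 at 24 h. Over the kept genes the median difference between the 2 libraries of a group was 0.145 at 6 h and 0.132 at 24 h on the log2 scale, and 74 and 145 genes lay more than 2-fold apart. Before scaling, FPKM summed over all genes with a symbol was 900281 and 866233 at 6 h and 677320 and 1203218 at 24 h. Some markers of the labelled tissue were present in every library. Klk1b9, a kallikrein of the granular ducts of the submandibular gland, is named after its values were seen. It was at 15576 and 15932 at 6 h and 5304 and 5801 at 24 h. Others were not: Spt1, an abundant salivary protein whose symbol was not matched to GENCODE M21, was listed at 0 in both 24 h libraries. The kallikrein Klk1b26 was at 0 and 0.098 at 6 h. The acinar water channel gene Aqp5 was at 159 and 162 and then 169.7 and 171.

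Ionizing radiation breaks DNA, and the transcription factor p53 then switches on genes for cell cycle arrest, repair and cell death, several of which, such as Mdm2, feed back on p53 itself. Interferons, released in response to nucleic acids or by activated lymphocytes, act through transcription factors on a DNA motif called the interferon-stimulated response element (ISRE) and raise GTPases, antiviral proteins and antigen presentation. The rodent submandibular gland contains acini that secrete saliva and granular convoluted tubules, duct segments that store growth factors and kallikreins, and reduced saliva is a known side effect of radiotherapy of the head and neck.

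The promoters of interferon-stimulated genes are shown because these genes rose together at 24 h. The windows run from 250 bases before to 50 bases after the gene start (RefSeq, GRCm38.p6), written 5′ to 3′ on the strand of the gene, with matches to the ISRE core in capitals. The 4 genes shown are those with the smallest p among the list members called higher that held a match. Of these, Igtp encodes an immunity-related GTPase and was at 6.67 and 6.56 at 6 h and 28.6 and 23.9 at 24 h. The windows lie at chr3:142559794-142560093 (Gbp3, plus strand), chr11:49064163-49064462 (Tgtp2, minus strand), chr11:58199306-58199605 (Igtp, plus strand) and chr3:142620413-142620712 (Gbp2, plus strand).
Gbp3: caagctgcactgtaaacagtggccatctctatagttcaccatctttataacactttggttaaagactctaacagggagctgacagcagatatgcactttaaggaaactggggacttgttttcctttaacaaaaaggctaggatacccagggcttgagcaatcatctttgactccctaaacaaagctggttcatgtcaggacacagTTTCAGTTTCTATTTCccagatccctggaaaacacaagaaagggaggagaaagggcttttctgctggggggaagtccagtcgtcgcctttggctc
Tgtp2: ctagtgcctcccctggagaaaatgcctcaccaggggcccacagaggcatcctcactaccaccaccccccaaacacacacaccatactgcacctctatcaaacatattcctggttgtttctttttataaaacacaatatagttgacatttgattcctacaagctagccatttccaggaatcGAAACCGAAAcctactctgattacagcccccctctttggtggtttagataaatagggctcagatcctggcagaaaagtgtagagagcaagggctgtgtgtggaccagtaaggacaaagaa
Igtp: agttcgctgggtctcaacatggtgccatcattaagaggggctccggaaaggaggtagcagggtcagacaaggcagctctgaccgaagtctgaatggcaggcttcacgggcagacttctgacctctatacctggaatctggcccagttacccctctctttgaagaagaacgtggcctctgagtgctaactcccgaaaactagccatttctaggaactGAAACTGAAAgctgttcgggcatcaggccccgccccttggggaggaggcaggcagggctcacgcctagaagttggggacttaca
Gbp2: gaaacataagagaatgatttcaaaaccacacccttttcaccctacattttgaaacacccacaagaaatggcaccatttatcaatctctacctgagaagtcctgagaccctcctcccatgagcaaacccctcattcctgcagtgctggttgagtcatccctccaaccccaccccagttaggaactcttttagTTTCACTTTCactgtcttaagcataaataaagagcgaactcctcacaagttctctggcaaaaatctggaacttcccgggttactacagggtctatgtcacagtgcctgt
The core was searched in these gene-strand letters as TTTCNNTTTC and as GAAANNGAAA, its reverse complement, which marks a core on the other strand. Gbp3 held 2 matches that overlap, beginning 45 and 39 bases before the start, and the matches of Tgtp2, Igtp and Gbp2 began 70, 34 and 59 bases before it. Of the 31 kept genes of the interferon-stimulated list that had a window, 21 (67.7%) held the core, against 3.49% of all 27025 windows used and 2.95% of those of kept genes. The share was 14 of 19 among list members called higher at 24 h and 7 of 12 among those not called. A match describes these letters and says nothing of binding.

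At 24 h, 1370 of the 11409 genes were called higher and 938 lower than at 6 h (limma, two-sided, Benjamini-Hochberg adjusted p under 0.05), 20.2% of all in either direction. These are 12% and 8.22% of the genes tested, the background for every list below. The unadjusted p was under 0.05 for 4126 genes, and the libraries of the times did not overlap for 7430 genes (65.1%). Changes were mostly moderate: 457 of the higher and 184 of the lower calls were at least 2-fold, and 66 and 41 at least 4-fold. Without the scaling factors the split was 2834 higher and 413 lower, because the median of all genes then lay 0.22 above 0 on the log2 scale. Calls fell to 636 higher and 288 lower without replicate 1 of 6 h, while 506 higher and 243 lower calls held under each of the 14 alternatives that tested them.

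**Figure D1:**
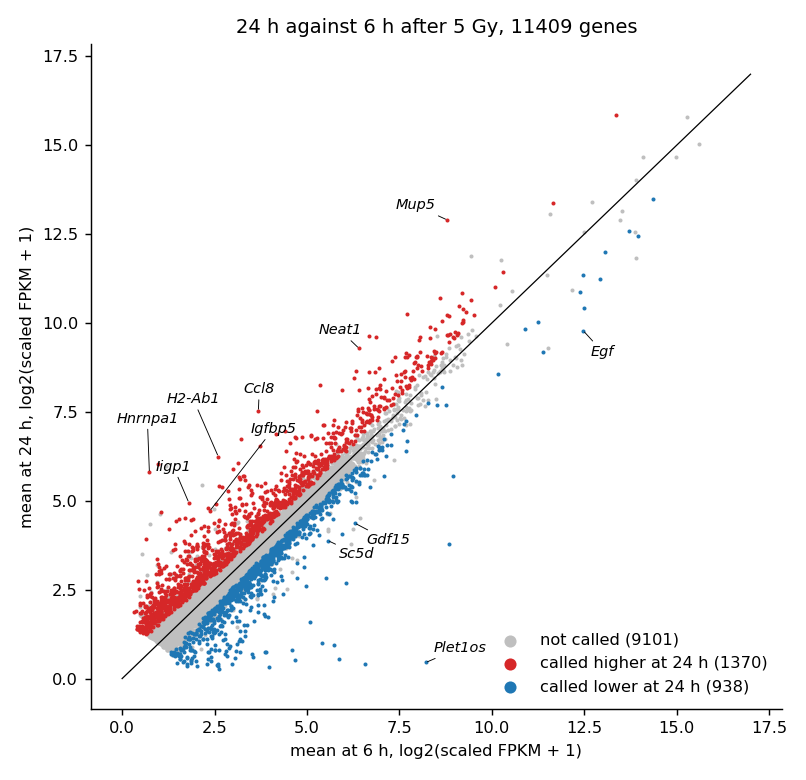
Mean level at 6 h (x axis) and at 24 h (y axis) after 5 Gy as log2(scaled FPKM + 1), one point per kept gene, with the line of equal levels. Red points are the 1370 genes called higher at 24 h, blue points the 938 called lower and grey points the 9101 not called. Ccl8 and H2-Ab1 lie far above the line, and Plet1os and Egf far below it.

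**Figure D2:**
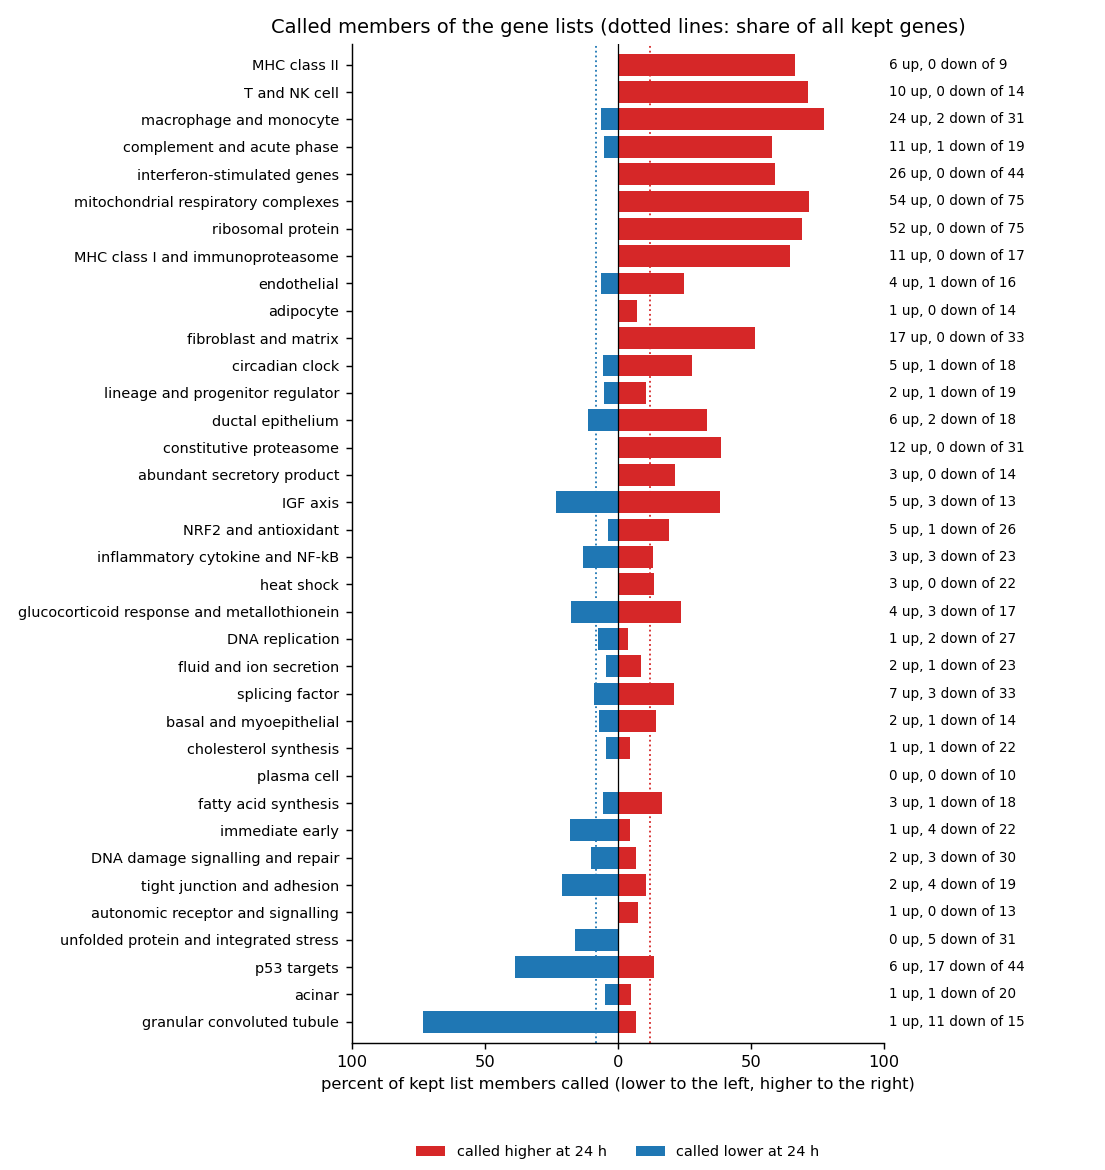
Percent of kept members called higher, for gene lists with at least 9 kept members (red bars, to the right), or called lower (blue, to the left) at 24 h, with lists ordered by median log2 fold change and dotted lines at the 12% and 8.22% of all kept genes. Immune, ribosomal and respiratory lists extend to the right, and the granular convoluted tubule and p53 lists extend furthest to the left.

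Targets of p53 were mainly lower at 24 h than at 6 h. Of 44 kept targets, 17 fell, 6 rose and 21 did not pass, and the median log2 fold change was -0.29, against -0.0024 over all kept genes. Gdf15, a secreted stress cytokine (chromosome 8, 70629393 to 70632456, minus strand), was at 67.6 and 87.4 at 6 h, 19.3 and 20.1 at 24 h and 0.484 and 0.593 in control. Both 24 h libraries were below both at 6 h and far above both controls, and the log2 fold change was -1.91 ± 0.14 (SE, adjusted p = 0.00126). Mdm2, the ubiquitin ligase that degrades p53, went from 40.8 and 40.5 to 22.6 and 19.9, with 18.6 and 17.7 in control. Its 24 h values thus lay just above the unirradiated ones, at a log2 fold change of -0.91 ± 0.10 (SE, adjusted p = 0.00418). Abhd4, a lipid hydrolase, fell from 33.2 and 31.3 to 16.1 and 15.7, near its control level of 14.9 and 12.3, with a log2 fold change of -0.97 ± 0.09 (SE, adjusted p = 0.0028).

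Some targets that were lower at 24 h remained far above control. Cdkn1a, the gene of the p21 inhibitor of cyclin-dependent kinases, stood at 44.2 and 48.1 at 6 h, 32.1 and 33.3 at 24 h and 2.55 and 2.31 in control, with a log2 fold change of -0.48 ± 0.10 (SE, adjusted p = 0.0218). The groups did not overlap, yet the call was lost without replicate 1 of 6 h, replicate 2 of 6 h or replicate 1 of 24 h, and without scaling. Bax, which encodes a protein that permeabilizes mitochondria in cell death, did not pass the test (71.7 and 82.6 at 6 h, 62 and 62.3 at 24 h, 19.5 and 14.5 in control; adjusted p = 0.095). Sesn2, a stress-induced inhibitor of mTORC1 signalling, fell from 12.4 and 11.7 to 6.75 and 7.82, a call lost without replicate 1 of 6 h and without replicate 1 of 24 h. The following targets are named for their direction, after their values were seen: Ccng1, a cyclin of the damage response, fell from 246 and 245 to 167 and 174, Polk, a DNA polymerase that reads through lesions, from 13.3 and 10.4 to 6.31 and 5.37, and Tnfrsf10b, a death receptor, from 5.43 and 5.12 to 2.65 and 2.44.

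The 6 targets that rose were Ak1, Mgmt, Sesn1, Zmat3, Ptp4a3 and Ces2e, of which all but Ak1 are named after their values were seen. Ak1, an adenylate kinase, was at 3.11 and 2.24 at 6 h, 11.4 and 10.6 at 24 h and 2.55 and 3.69 in control, so that only the 24 h libraries stood high, at a log2 fold change of 1.72 ± 0.15 (SE, adjusted p = 0.00214). Mgmt, which removes alkyl groups from guanine, was at 8.3 and 10.4, then 19.8 and 17.1, with 2.99 and 5.6 in control. For 16 of the 17 targets that fell, the control mean was nearer the 24 h than the 6 h mean, whereas this held for 1 of the 6 that rose. The number of targets called lower depended on single libraries: it was 5 without replicate 1 of 6 h, 9 without replicate 2 of 6 h, 9 without replicate 1 of 24 h and 12 without replicate 2 of 24 h, and 8 without scaling. The 6 rises became 4, 3, 5 and 3 without those libraries, while the list's median stayed below 0 in every setting.

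Genes of NF-kB signalling and inflammation went both ways. In the list of NF-kB and inflammatory cytokine genes 3 of 23 kept members rose and 3 fell, with a median log2 fold change of 0.21, while without scaling 10 rose and 2 fell, and without replicate 1 of 24 h 7 rose and 2 fell. Relb, a subunit of the non-canonical NF-kB pathway, was at 22.2 and 12.6 at 6 h, 4.72 and 6.46 at 24 h and 2.82 and 2.67 in control. Its 6 h libraries differed from each other but both exceeded the 24 h ones, and the log2 fold change was -1.44 ± 0.27 (SE, adjusted p = 0.0182). Nfkb2, which encodes the precursor of its partner p52, fell from 21.1 and 19.1 to 10.3 and 10.03, at -0.92 ± 0.10. Of the 4584 exon bases of Nfkb2, 830 lie over exons of the opposite strand, which makes its level uncertain. Lcn2 belongs to the complement and acute phase list and Cd14 to the macrophage list, and both lists mostly rose. Lcn2 is also in the glucocorticoid and metallothionein list, where 4 of 17 kept members rose and 3 fell. Lcn2, an iron-binding acute phase protein, fell from 157 and 151 to 90.1 and 96.5 and stayed above its control values of 58.7 and 58.9. Cd14, a co-receptor for bacterial lipopolysaccharide, fell from 35 and 29.1 to 17.9 and 17.7, with 17.3 and 13.6 in control, a log2 fold change of -0.81 ± 0.12 (SE, adjusted p = 0.0094). Vcam1, an adhesion molecule of activated endothelium, rose from 2.51 and 2.52 to 6.34 and 13.5, though not without replicate 1 or without replicate 2 of 6 h.

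Of 22 kept immediate early genes 1 was called higher (4.55%) and 4 lower (18.2%), against 12% and 8.22% of all kept genes. Atf3, a stress-induced transcription factor, was at 4.18 and 3.64 at 6 h and 2.01 and 1.9 at 24 h. Dusp1, a phosphatase that inactivates MAP kinases, was at 6.53 and 8.95 and 3.79 and 3.75, and its control libraries were far apart (33.3 and 8.37). The lower count was 1 and the higher 0 without replicate 1 of 6 h, as without replicate 2 of 24 h, and the call of Atf3 was lost in both. Of 17 kept glucocorticoid-responsive and metallothionein genes, 4 rose and 3 fell. Tsc22d3, a glucocorticoid-induced leucine zipper protein, rose from 5.93 and 5.72 to 17.7 and 11.8, and Mt1, a metal-binding metallothionein, from 217 and 231 to 338 and 336, a call lost after quantile normalization (adjusted p = 0.572 by limma) and without replicate 1 of 6 h, whereas Fkbp5, another glucocorticoid target, was at 19 and 15.6 and 21.4 and 15.8, where the groups overlapped. Without replicate 1 of 6 h only 1 of these genes was called higher, and after quantile normalization 2 rose and 4 fell.

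Clock genes moved in both directions between the times, which stood 6 h and 24 h after irradiation, and the clock hour of each collection is not given in the sources used here. Among 18 kept clock genes 5 rose and 1 fell, with a median log2 fold change of 0.44. Dbp, a PAR bZIP transcription factor driven by CLOCK and BMAL1, was at 64.9 and 45.3 at 6 h, 28.1 and 33 at 24 h and 2.71 and 2.63 in control. Both times were far above control, and the log2 fold change between them was -0.81 ± 0.18 (SE, adjusted p = 0.0313). Of its 2993 exon bases 539 lie over exons of Sphk2 on the opposite strand, which makes the level uncertain. Hlf, a factor of the same family, rose from 0.892 and 0.891 to 2.07 and 2.12, with 0.232 and 0.227 in control, a call lost when any one of the 4 libraries was left out. Cry1, a repressor of CLOCK and BMAL1, rose from 1.13 and 1.33 to 4.07 and 3.21, a log2 fold change of 1.05 ± 0.16 (SE, adjusted p = 0.00986), and its control values of 2.52 and 1.7 lay between the times.

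The remaining clock genes called higher were Rora, Ciart and Usp2, named after their values were seen. Per2, a partner of Cry1, was at 3.89 and 2.11 at 6 h and 11.4 and 5.13 at 24 h, with non-overlapping groups but an adjusted p of 0.077. Nr1d1, a nuclear receptor that represses Arntl, was at 58.1 and 43.7 and then 26.6 and 35.9 (adjusted p = 0.0546). Arntl itself encodes BMAL1, and its mean was too low for it to be kept. Its scaled FPKM was 0.442 and 0.471 at 6 h, 0.484 and 0.893 at 24 h and 12.5 and 10.9 in control. The higher count was 1 without replicate 1 of 6 h, 1 without replicate 2 of 6 h and 1 without replicate 1 of 24 h, and the call of Dbp was lost without replicate 1 of 6 h, without replicate 1 of 24 h and without scaling. The E-box CACGTG, the motif bound by CLOCK and BMAL1, was present in the promoter window of 5 of the 15 kept clock genes with one (33.3%) and in 7.24% of all windows and 10.6% of those of kept genes.

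**Figure D3:**
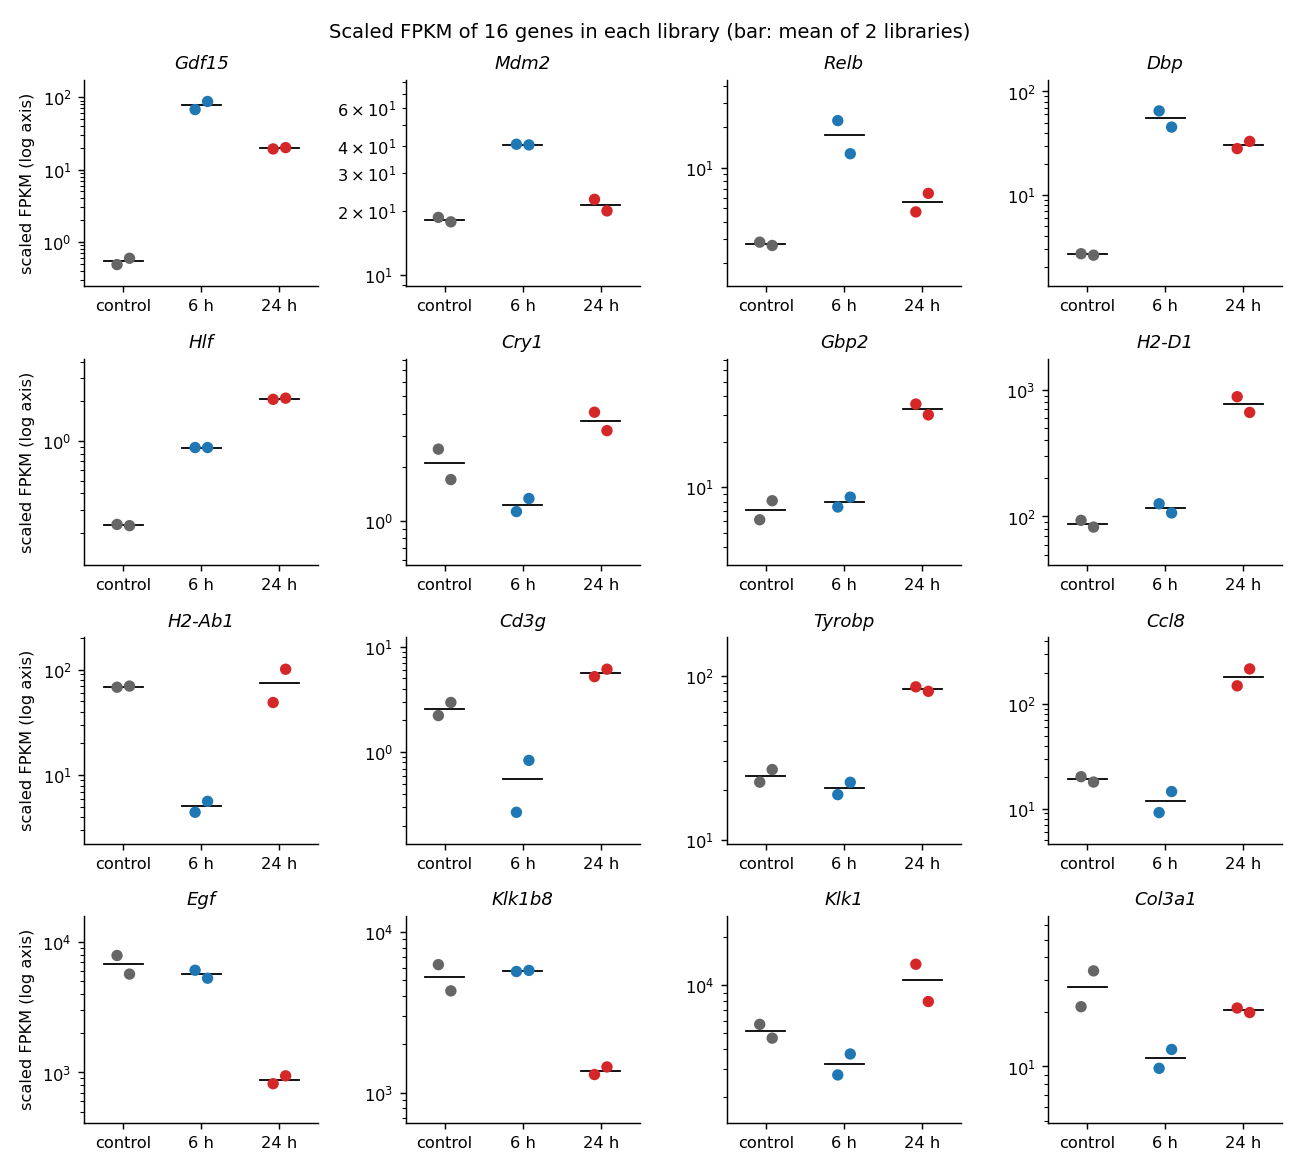
Scaled FPKM of 16 genes (log axis) in the 2 control (grey), 6 h (blue) and 24 h (red) libraries, with bars at the mean of each pair. Gdf15, Mdm2, Relb and Dbp fall from 6 h to 24 h, Gbp2, H2-D1, Tyrobp and Ccl8 are high only at 24 h, and H2-Ab1 and Col3a1 are low only at 6 h.

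Interferon-stimulated genes rose as a group. Of 44 kept members 26 rose, 0 fell and 18 did not pass, with a median log2 fold change of 1.19, and for all 26 the control mean was nearer the 6 h mean. Iigp1, an immunity-related GTPase (chromosome 18, 60376027 to 60392634, plus strand), was at 2.32 and 2.66 at 6 h, 32.1 and 27.7 at 24 h and 6.31 and 7.11 in control. The 6 h values were the lowest of the 3 groups, and the log2 fold change of 3.14 ± 0.12 (SE, adjusted p = 0.000218) was the largest of the list. Gbp2, a guanylate-binding protein that acts on pathogen vacuoles, was at 7.41 and 8.61, then 35.6 and 30.2, with 6.1 and 8.15 in control. Its 6 h and control ranges overlapped, and only the 24 h libraries stood apart, at a log2 fold change of 1.91 ± 0.13 (SE, adjusted p = 0.000984).

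Related GTPases were also highest at 24 h. Gbp3 rose from 1.98 and 2.48 to 12.9 and 13, with 3.5 and 3.4 in control, a log2 fold change of 2.12 ± 0.13 (SE, adjusted p = 0.000798). Tgtp2, a T cell specific GTPase with a near-identical copy in Tgtp1, rose from 0.848 and 1.09 to 8.67 and 7.97, and how reads were divided between the copies is uncertain. The following members were picked after their values were seen: Cxcl9, a chemokine induced by interferon gamma, rose from 1.71 and 1.65 to 10.2 and 13, Zbp1, a sensor of Z-form nucleic acid, from 2.72 and 2.61 to 16.2 and 26.2, and Isg15, a ubiquitin-like modifier, from 4.86 and 8.72 to 19.7 and 27.8. Ifi27l2a, an interferon-induced mitochondrial protein outside the list, rose from 80.9 and 120.1 to 953 and 644. Across the 14 alternatives 21 to 36 members were called higher and 0 lower. Among the 21 list members that share no exon with another gene and have no near-identical copy, 11 rose and 0 fell.

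Antigen presentation genes rose with them. Of 17 kept genes of MHC class I and the immunoproteasome, 11 rose and 0 fell. H2-D1, a classical class I heavy chain (chromosome 17, 35262730 to 35267499, plus strand), was at 126 and 107 at 6 h, 882 and 663 at 24 h and 93.2 and 82.4 in control. Both 24 h libraries exceeded the other 4, and the log2 fold change was 2.71 ± 0.17 (SE, adjusted p = 0.00084). Nlrc5, the transactivator of class I genes, rose from 2.13 and 2.35 to 6.3 and 5.8, and Psmb8, a catalytic subunit of the immunoproteasome, from 23.6 and 16.3 to 64.4 and 56.8. H2-T23, a non-classical class I gene named after its values were seen, was not called and its 24 h libraries were far apart, at 2 and 65. Class I genes are polymorphic and similar in sequence, so the division of reads between them is uncertain. Without replicate 1 of 6 h 7 were called higher, and without replicate 2 of 24 h 9 were called higher and 1 lower.

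Genes of MHC class II, which presents antigen to helper T cells, rose in part. Of 9 kept members 6 rose and 0 fell, with a median log2 fold change of 1.66, and the control mean was nearer the 24 h mean for 2 of the 6. H2-Ab1, a class II beta chain (chromosome 17, 34257689 to 34269419, plus strand), was at 4.46 and 5.67 at 6 h, 48.8 and 101 at 24 h and 68.2 and 69.9 in control. The 24 h pair spanned the control pair, both far above 6 h, and the log2 fold change was 3.56 ± 0.33 (SE, adjusted p = 0.00234). Its partner chain H2-Aa and the beta chain H2-Eb1, named after their values were seen, were not called: H2-Aa was at 1.03 and 1.52 at 6 h, 5.61 and 119 at 24 h and 94.5 and 106 in control. H2-Eb1 was at 0.935 and 1.13, 1.65 and 46.1 and 42.7 and 43.8. In both genes replicate 2 of 24 h was slightly above the controls, while replicate 1 of 24 h lay far below them. Ctss, a protease that trims the invariant chain, rose from 34 and 38 to 96.1 and 116, and H2-DMa, which loads peptides, from 3.82 and 3.87 to 12 and 9.56. The class II transactivator gene Ciita was under the limit on the mean. Its scaled FPKM was 0.367 and 0.385 at 6 h and 1.60 and 1.16 at 24 h. Without replicate 1 of 6 h 5 members were called higher and 1 lower.

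Markers of macrophages and monocytes were higher at 24 h. Of 31 kept markers 24 rose and 2 fell, with a median log2 fold change of 1.29, and the summed level of the list was 402 and 483 at 6 h, 1219 and 1418 at 24 h and 527 and 557 in control. In bulk tissue more cells of a type and more RNA per cell cannot be told apart. Tyrobp, an adaptor of activating myeloid receptors (chromosome 7, 30413760 to 30417585, plus strand), was at 18.8 and 22.4 at 6 h, 85.3 and 80.2 at 24 h and 22.4 and 26.8 in control. The control and 6 h libraries overlapped while the 24 h ones stood above both, at a log2 fold change of 1.96 ± 0.12 (SE, adjusted p = 0.000743). Ly86, a partner of a Toll-like receptor relative, rose from 6.82 and 6.7 to 18.8 and 19.7, and C1qc, a chain of complement C1q made by macrophages, from 30.8 and 36.5 to 123 and 102.

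The markers that fell were Cd14, described above, and Cd163, a haemoglobin scavenger receptor of resident macrophages named after its values were seen (4.87 and 4.29 at 6 h, 2.73 and 1.22 at 24 h). A single marker was called lower without replicate 1 of 6 h, without replicate 2 of 6 h or without replicate 2 of 24 h. Ccl8, a chemokine that attracts monocytes and lymphocytes (chromosome 11, 82115185 to 82116799, plus strand), was at 9.16 and 14.6 at 6 h, 149.6 and 217 at 24 h and 20.2 and 18 in control. It was among the genes with the largest rise, 3.85 ± 0.25 (SE, adjusted p = 0.000916), and its 6 h values were below both controls. Cxcl12, a chemokine of stromal cells that binds CXCR4, rose from 1.97 and 1.89 to 19 and 24.3, at 2.94 ± 0.14. Of 19 kept complement and acute phase genes 11 rose and 1, Lcn2, fell. C2, a complement protease, rose from 1.7 and 2.17 to 6.26 and 6.85, and Cp, the copper-carrying ferroxidase ceruloplasmin, from 6.29 and 6.78 to 16.5 and 16. Of the 3872 exon bases of C2, 1817 are shared with other annotated genes, which makes its level uncertain.

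T and natural killer (NK) cell genes were lowest at 6 h. Of 28 listed genes 27 were measured and 14 kept, so 13 low members are missing from the counts. Of the kept genes 10 rose and 0 fell, with a median log2 fold change of 1.30. Cd3g, a chain of the T cell receptor complex, was at 0.269 and 0.837 at 6 h, 5.2 and 6.12 at 24 h and 2.22 and 2.96 in control. All 24 h values exceeded all others, and the log2 fold change was 2.12 ± 0.21 (SE, adjusted p = 0.00287). Nkg7, a protein of cytotoxic granules, rose from 2.03 and 2.53 to 11.4 and 10.9, and Ccl5, a chemokine of activated T and NK cells, from 6.4 and 9.35 to 44.1 and 56.3. Ms4a4b, a membrane protein of T cells, rose from 1.31 and 2.18 to 15.3 and 25.9. The control mean was nearer the 24 h mean for 6 of the 10. The count was 6 without replicate 1 of 6 h, 6 without replicate 2 of 6 h, and 4 of 5 when at least 1 FPKM was required in each library.

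The remaining blood cell lists had few kept members. Of the 3 kept B cell genes and the 2 kept neutrophil genes 0 were called, and of 10 kept plasma cell genes 0 were called. Without replicate 1 of 24 h, 2 B cell and 2 plasma cell genes were called higher. Of 3 kept mast cell and eosinophil genes 2 rose, among them Prg2, an eosinophil granule protein, from 1.21 and 1.23 to 2.34 and 2.41, and 0 were called without replicate 1 of 6 h, without replicate 2 of 6 h or without replicate 2 of 24 h, with 1 without replicate 1 of 24 h. The 1 kept erythrocyte gene, Alas2, an enzyme of haem synthesis named after its values were seen, fell from 2.6 and 3.85 to 1.08 and 0.911. Summed B cell markers were at 5.12 and 6.22 at 6 h and 6.27 and 20.9 at 24 h. The B cell gene Ms4a1, too low to be kept, was at 0.0830 and 2.60 scaled FPKM at 24 h. Ly6c1, an antigen of endothelium and monocytes with a near-identical copy, rose from 8.88 and 14.2 to 46.8 and 38.7. Of 16 kept endothelial genes 4 rose and 1 fell. Vwf, the von Willebrand factor of endothelium, fell from 5.9 and 5.87 to 0.562 and 2.22, and its call was lost without replicate 1 and without replicate 2 of 6 h. The endothelial counts were 1 higher and 0 lower without replicate 1 of 6 h, 2 and 0 without replicate 2 of 6 h, 7 and 1 without replicate 1 of 24 h and 2 and 1 without replicate 2 of 24 h.

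Most kept products of the granular convoluted tubule were lower at 24 h. Of 15 kept members 11 fell, 1 rose and 3 did not pass, with a median log2 fold change of -1.22. The control mean was nearer the 6 h mean for all 12 called. The summed level of the 18 measured members, including those not kept, was 100118 and 99220 at 6 h and 81583 and 73653 at 24 h. In control it was 127424 and 93156. Egf, the growth factor stored in these ducts (chromosome 3, 129677565 to 129755316, minus strand), was at 6092 and 5293 at 6 h, 820.0 and 942 at 24 h and 7907 and 5692 in control. Both 24 h libraries lay far below the other 4, and the log2 fold change was -2.69 ± 0.16 (SE, adjusted p = 0.00073).

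The kallikreins, serine proteases of the same granules, split within the family. Klk1b8 (chromosome 7, 43950664 to 43954941, plus strand) was at 5673 and 5765 at 6 h, 1296 and 1445 at 24 h and 6259 and 4297 in control, a log2 fold change of -2.06 ± 0.15 (SE, adjusted p = 0.00116). Klk1b24 fell from 1009 and 1302 to 381 and 375. Klk1, the tissue kallikrein that releases kinins from kininogen (chromosome 7, 44225360 to 44229618, plus strand), rose from 2739 and 3706 to 13552 and 7907, with 5688 and 4661 in control, at 1.70 ± 0.31 (SE, adjusted p = 0.017), a call lost without replicate 1 of 6 h. Klk1b5, named after its values were seen, was at 6150.4 and 5436 and 6539.6 and 5484, with overlapping groups. Klk1b26 went the other way and failed the minimum. Its scaled FPKM was 0 and 0.0980 at 6 h, 0.201 and 0.210 in control and 19297 and 21452 at 24 h. These genes form 1 family of similar sequence, so how either quantification divided reads among them is uncertain, although 0 of the kept list members had a copy by the measure of 95% identity over 300 bases. Members called lower numbered 8 without replicate 1 of 6 h and 6 after quantile normalization.

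Few acinar genes were called. Of 20 kept members 1 rose and 1 fell, with 4 falling without replicate 2 of 24 h, 2 without replicate 1 of 24 h and 0 without replicate 1 or without replicate 2 of 6 h. Aqp5 had a log2 fold change of 0.09 ± 0.09 (adjusted p = 0.533), and Chrm3, the muscarinic receptor that triggers saliva secretion, was at 7.13 and 5.3 at 6 h and 5.16 and 4.38 at 24 h (adjusted p = 0.226). The peroxidase gene Lpo was at 339.8 and 278 and 229 and 222 (adjusted p = 0.0576). Cldn10, a claudin that forms ion pores between cells, rose from 70.7 and 91.2 to 168 and 170.3, against 76.6 and 73.7 in control, at 1.06 ± 0.14 (SE, adjusted p = 0.00621). Smgc, a secretory product encoded next to Muc19 and sharing exon bases with it, fell from 338 and 582 to 0.45 and 25.4, but its control libraries were at 0 and 272 and the call was lost without replicate 1 and without replicate 2 of 6 h.

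Among genes of ion transport, Fxyd2, the gamma subunit of the sodium pump (chromosome 9, 45399669 to 45410278, plus strand), was at 259 and 155 at 6 h, 1118 and 1305 at 24 h and 345 and 241 in control. Its 24 h libraries stood above all others, with a log2 fold change of 2.58 ± 0.25 (SE, adjusted p = 0.00258). Slc4a4, a sodium bicarbonate cotransporter, fell from 7.88 and 3.79 to 0.99 and 1.32. In all, 2 of 23 kept fluid secretion genes rose and 1 fell, with 1 rising without replicate 1 and 1 without replicate 2 of 6 h. Of 18 kept ductal genes 6 rose and 2 fell. Scnn1a, a subunit of the epithelial sodium channel, rose from 18.1 and 15.1 to 30.3 and 30.8, close to its control level of 27.6 and 22.1, and Ascl3, a transcription factor of ductal ionocytes, from 30.6 and 25.5 to 60.9 and 66.2, above its control level of 22.2 and 16.4. Krt18, a keratin of simple epithelium, fell from 457 and 411 to 181 and 227, at -1.09 ± 0.14 (SE, adjusted p = 0.0062). Without replicate 1 or without replicate 2 of 6 h, 3 ductal genes were called higher and 1 lower.

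Basal cell genes included Krt5, the basal keratin, which rose from 14.2 and 12.6 to 25.4 and 35.3, and Trp63, a transcription factor of basal epithelium, which rose from 1.94 and 1.2 to 4.1 and 4.27. They were the 2 of 14 kept members of the basal and myoepithelial list that rose, and Tagln, a smooth muscle protein whose exons are largely overlapped by genes on the opposite strand, was the 1 that fell, from 132 and 111 to 84.2 and 84.9, though only with replicate 1 of 6 h and both 24 h libraries in the fit. Genes of keratinized epidermis also summed higher in both 24 h libraries, as given above, and the tissue source of Krt5 and Trp63 was not tested. Of 19 kept genes of tight junctions and adhesion 2 rose and 4 fell. Among the falls was Ocln, the junction protein occludin, from 13.9 and 13.9 to 8.26 and 8.81. Without replicate 1 of 6 h only Cldn10 was called in this list. The falls numbered 1 without replicate 2 of 6 h, 2 without replicate 1 of 24 h and 1 without replicate 2 of 24 h. Of 14 kept genes of abundant secretory products 3 rose and 0 fell. Their median log2 fold change was 0.28, and it ranged from -0.33 to 0.24 when 1 library was left out. The summed level of the 24 measured members was 598879 and 520811 at 6 h and 199549 and 672120 at 24 h. The 24 h libraries thus lay on either side of both 6 h ones. Mup5, a major urinary protein gene of a multigene family, rose from 311 and 574 to 9543 and 5754, at 4.13 ± 0.36 (SE, adjusted p = 0.00207), and Scgb2b26, a secretoglobin, from 10543 and 10671 to 79282 and 39597, though not after quantile normalization, without replicate 1 of 6 h or without replicate 2 of 6 h.

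Genes of fibroblasts and extracellular matrix were low at 6 h and higher at 24 h. Of 33 kept members 17 rose and 0 fell, with a median log2 fold change of 0.56, and for 14 of the 17 the control mean was nearer the 24 h mean. Col3a1, a fibrillar collagen (chromosome 1, 45311538 to 45349706, plus strand), was at 9.77 and 12.4 at 6 h, 21 and 19.8 at 24 h and 21.4 and 33.7 in control. The 24 h values lay under both control ones and above both at 6 h, and the log2 fold change was 0.83 ± 0.13 (SE, adjusted p = 0.0124). Col1a1, the main collagen of connective tissue, rose from 7.49 and 7.65 to 13.5 and 13.6, with 11.2 and 15.1 in control. Serpinh1, a collagen chaperone, rose from 9.36 and 9.35 to 17.6 and 18.5, and Thy1, a surface glycoprotein of fibroblasts and of T cells in mice, from 1.01 and 0.987 to 7.15 and 7.28, at 2.04 ± 0.12. Without replicate 1 of 6 h, 10 members were called higher.

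Insulin-like growth factor genes moved both ways. Igfbp5, a binding protein secreted by stromal and epithelial cells, was at 3.73 and 4.59 at 6 h, 25.8 and 24.5 at 24 h and 13.3 and 16.2 in control, a log2 fold change of 2.35 ± 0.12 (SE, adjusted p = 0.000574). Its order was 6 h, control, 24 h, with no overlap. Igf1, the growth factor itself, rose from 0.423 and 0.536 to 2.8 and 3.97, and Igfbp7 from 26 and 31.8 to 57 and 64.3. Of 13 kept genes of this axis 5 rose and 3 fell. Falls numbered 0 without replicate 1 of 6 h, 1 without replicate 2 of 6 h and 1 without replicate 1 of 24 h.

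The housekeeping lists with the largest counts were those of the ribosome and the respiratory chain. Of 75 kept ribosomal protein genes 52 rose and 0 fell, with a median log2 fold change of 0.63, and of 75 kept genes of the mitochondrial respiratory complexes 54 rose and 0 fell, with a median of 0.69. Rpl38, a large subunit protein (chromosome 11, 114668524 to 114672331, plus strand), was at 368 and 399 at 6 h, 1622 and 1692 at 24 h and 311 and 307 in control. The 24 h libraries stood far above the other 4, at 2.11 ± 0.12 (SE, adjusted p = 0.000638). Rpl39 was at 75.3 and 81.9 and then 425 and 372. Atp5k, a small subunit of ATP synthase, rose from 54.4 and 66.2 to 274 and 274, and Ndufv3, a subunit of complex I, from 23 and 25.8 to 106 and 115.

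These genes are short, with a median exon length of 1770 bases in the ribosomal list against 4372 bases over the kept genes, and calls of higher level moved with length. Of genes with up to 1 kb of exon 38.2% were called higher. The share was 10.9% between 2 and 4 kb and 9.67% over 8 kb. Shares called lower in the same bins were 13.7%, 10.3% and 4.94%. The kept granular convoluted tubule genes had a median of 878 exon bases, and 1 of them had at least 2000. Near-identical copies were found for 54 of the kept ribosomal genes. Among the 13 ribosomal genes without a copy or a shared exon 11 rose and 0 fell, and among the 33 with at least 2000 exon bases 20 rose and 0 fell. In the respiratory list the matching counts were 29 of 42 and 19 of 31, each with 0 falling. After quantile normalization 14 ribosomal and 38 respiratory genes rose, and without replicate 1 of 6 h 22 ribosomal genes rose. The ribosomal control means were nearer 6 h for all 52 and the respiratory ones for 46 of 54.

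Other housekeeping lists moved less. Of 31 kept genes of the constitutive proteasome 12 rose and 0 fell. Psmb5, a catalytic subunit with a near-identical copy, rose from 25.8 and 30.0 to 52.5 and 57.7. The proteasome count was 4 without replicate 1 of 6 h, 6 without replicate 2 of 6 h and 7 without replicate 2 of 24 h. Genes of the unfolded protein and integrated stress responses went the other way, with 0 of 31 higher and 5 lower and a median log2 fold change of -0.26, which became 0.003 without scaling, where 3 rose and 3 fell. Dnajb9, a chaperone cofactor of the endoplasmic reticulum, was at 70.2 and 73.6 at 6 h, 33.3 and 28.1 at 24 h and 63.9 and 52.8 in control. Both 24 h libraries lay below the other 4, at -1.20 ± 0.11 (SE, adjusted p = 0.00252). Eif2ak3, the stress sensor kinase PERK, fell from 26.5 and 26.3 to 14.3 and 17.2, a call lost without replicate 1 of 6 h. With that library left out 1 gene of the list was called lower, 3 were without replicate 1 of 24 h, and 10 were after quantile normalization.

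Several of the deepest falls concern genes whose exons lie over a gene on the opposite strand, and whether the counting used strand is not given in the sources used here, so these levels are uncertain. Lgi4, a secreted protein of peripheral nerve (chromosome 7, 31059342 to 31070935, plus strand), was at 33.1 and 32.1 at 6 h, 1.95 and 2.09 at 24 h and 22.8 and 28.5 in control, and 2059 of its 4584 exon bases lie over exons of Fxyd3. Phospho1, a phosphatase of bone mineralization, went from 58.7 and 72.1 to 5.87 and 5.03, against 104 and 90.1 in control, with 1708 of 2029 exon bases over exons of the opposite strand. Sycp3, a protein of meiotic chromosomes, went from 26.4 and 23 to 0.357 and 0.513, with 660 of 1264 exon bases over Chpt1. In each of these genes the 24 h libraries stood far below the other 4. The antisense transcript Plet1os had the deepest fall of all named genes, from 293 and 299 to 0.352 and 0.384, with 321 and 281 in control, at -7.76 ± 0.09 on the log2 scale.

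Over all kept genes with an annotation, at least 25% of the exon bases lay over exons of the opposite strand for 12.7% of the genes called lower, 2.81% of those called higher and 3.59% of those not called. A near-identical copy elsewhere in the genome was found for 6.59%, 13.2% and 7.95%. Hnrnpa1, a splicing factor with 9 such copies and the largest rise of all kept genes at 5.05 ± 0.14, was at 0.671 and 0.664 at 6 h, 0.599 and 0.335 in control and 48.2 and 61.1 at 24 h, and Cox16, an assembly factor of cytochrome oxidase that shares exons with another gene, was at 0.822 and 1.35 at 6 h, 1.16 and 1.08 in control and 28.4 and 20.8 at 24 h. In the 6292 genes with neither a shared exon nor a copy, 660 (10.5%) were called higher and 402 (6.39%) lower.

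**Figure D4:**
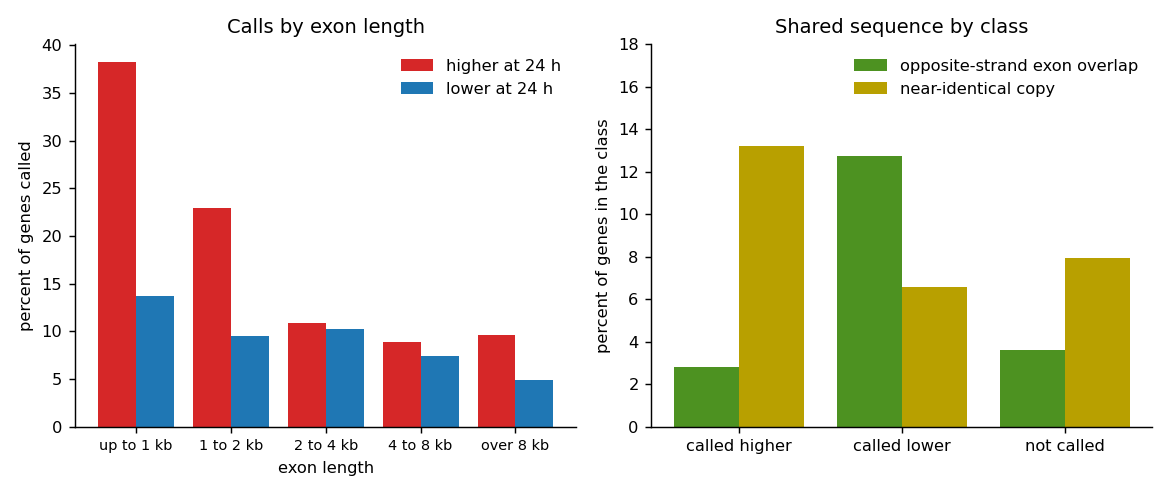
Left, percent of kept genes called higher (red) or lower (blue) at 24 h by exon length. Right, percent of genes in each class with at least 25% of exon bases over opposite-strand exons (green) or with a near-identical copy (yellow). Short genes are called higher most often, at 38.2% up to 1 kb, and opposite-strand overlap is most frequent among genes called lower, at 12.7%.

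Where the unirradiated level lay differed between the lists. Over all genes called higher, the control mean was nearer the 24 h mean for 268 of 1370 (19.6%), and over those called lower for 234 of 938 (24.9%). These shares are descriptions, since the control and 6 h columns have the same form of values and the 24 h columns another. For 641 of the higher and 414 of the lower calls both control libraries lay on the 24 h side of both 6 h libraries, as for Igfbp5, at 13.3 and 16.2 in control. For 133 and 95 they lay on the far side of both 6 h libraries, as for Hlf, so that the levels were ordered control, 6 h, 24 h. In the p53 list 17 of 23 called genes and in the matrix list 14 of 17 were nearer 24 h, against 0 of 26 interferon-stimulated genes, 0 of 52 ribosomal genes and 0 of 12 granular convoluted tubule genes.

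**Figure D5:**
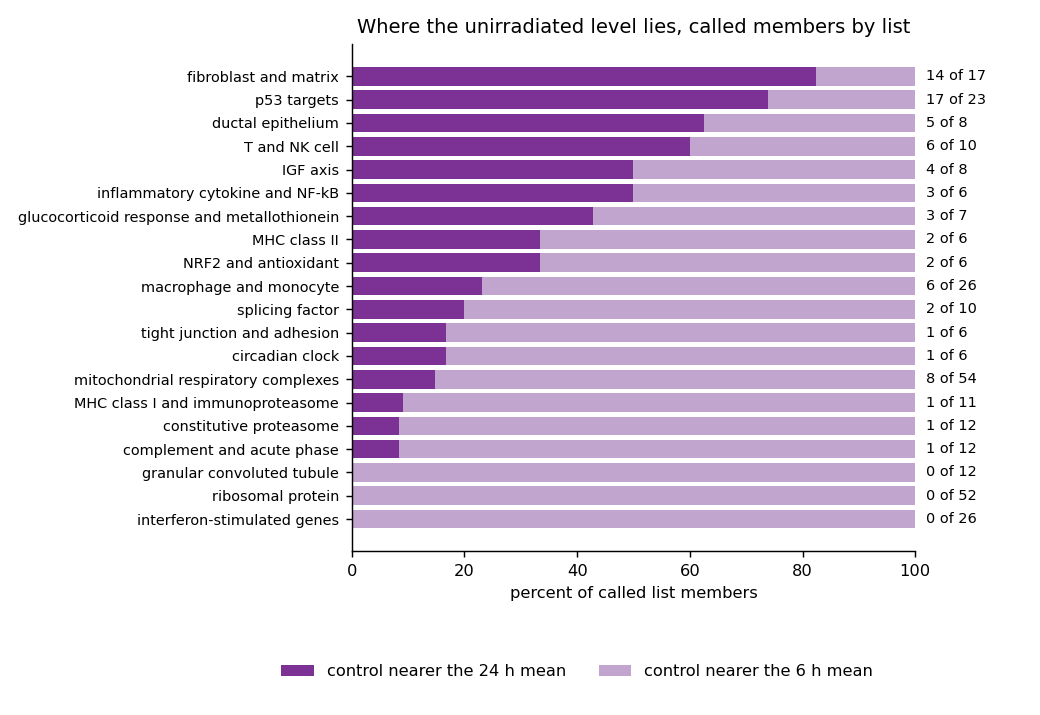
Percent of called members of each list whose control mean was nearer the 24 h mean (dark) or the 6 h mean (light) on the log2 scale, for lists with at least 6 called genes and with counts at the right. The fibroblast and matrix list (14 of 17) and the p53 list (17 of 23) have the highest shares, and the interferon-stimulated, ribosomal and granular convoluted tubule lists have 0.

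The minimum of 0.2 FPKM removed 348 genes whose mean was at least 1 FPKM, and no fold change is given for them. Of these, 120 were under the minimum in both 24 h libraries alone, 107 of them at or above it in both control libraries. Another 131 were under it in both 6 h libraries alone, 115 of them also under it in both control libraries. Spt1, an abundant salivary protein, had scaled FPKM values of 282674 and 212288 at 6 h and 244792 and 247412 in control. It was listed at 0 in both 24 h libraries. Its symbol was not matched to GENCODE M21, so these 0 values are uncertain. Ren1, the renin gene, was chosen after its values were seen. It was listed at 0 in the control and 6 h libraries, with 8.19 and 7.81 scaled FPKM at 24 h.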

How the data were processed

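RNA sequencing values of 6 libraries (2 each of control, 6 h and 24 h) were used as FPKM deposited by the authors, per the file headers. Per the submitters' processing notes the tools were TopHat2 2.1.0 and Cufflinks 2.2.1 with the mm10 genome. Strand use in counting is not given in the sources used here. From 24421 entries, 27 named by a number were left out.

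Kept genes were scaled by median-of-ratios factors, transformed as log2(scaled FPKM + 1) and fitted with limma 3.58.1 in R 4.3.3 (empirical Bayes with trend, 4 libraries, 2 residual degrees of freedom, two-sided, Benjamini-Hochberg over 11409 genes, threshold 0.05). Other steps used Python 3.11.15. An exact test of 2 against 2 cannot go below p = 0.333. Exons, copies (95% identity over 300 bases) and positions came from GENCODE M21 (GRCm38), matched by symbol for 11008 genes (96.5%). Promoter windows came from RefSeq.

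Named genes were the 12 called genes with the largest change each way among those with non-overlapping groups and a higher mean of at least 5, without unnamed or short RNA models, the 3 with the smallest p in each list with at least 2 calls, and a set of fixed genes. The genes, lists and tests were chosen with earlier results of these data known. Some genes named by this rule are not reported here.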

Additional observations from a re-analysis of the deposited data

How the results depend on the processing

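The calls (2308 in all, 1370 higher and 938 lower) were recomputed under 14 alternatives and under 2 more chosen after seeing the data. Without scaling 2834 genes were higher and 413 lower, by the shift of 0.22 in the median, and quantile normalization gave 1159 and 1107. Leaving out each library in turn gave 924 to 1625 calls, 636 to 1073 higher and 288 to 605 lower; the lone library of a group is then assumed to vary like the others. Of the added alternatives, leaving out genes with shared exons or near-identical copies gave 1062 calls, 660 higher and 402 lower, from the 6292 genes tested, and requiring 2000 exon bases gave 1926. Under upper-quartile factors, a pseudocount of 0.1, another minimum, the fit of all 6 columns, no trend and robust variances the total ranged from 2115 to 2550. Of 132 named genes called, 95 were called under every alternative that tested them, and 0 changed direction with a call. With the replicate number as a block 2320 genes were called; same-numbered libraries of the times deviated together with a correlation of 0.22 over 2 pairs, no label says that a number marks a shared animal or batch, and the numbers were not taken as pairing. The unknown depth at 24 h limits how precisely low genes are known there.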

Other observations

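Shares called in the response lists of this paragraph lay on either side of those over all kept genes, 12% higher and 8.22% lower. The antioxidant list had 19.2% higher and 3.85% lower, and the repair list 6.67% and 10%. In DNA damage signalling and repair 2 of 30 kept genes rose and 3 fell. Rnf8, a ubiquitin ligase recruited to DNA breaks, rose from 1.06 and 1.19 to 5.38 and 5.01. Of its 11703 exon bases 1542 are shared with another annotated gene, which makes its level uncertain. Chek2, a checkpoint kinase, fell from 9.32 and 9.6 to 5.52 and 4.78, at -0.77 ± 0.12 (SE, adjusted p = 0.0108) by limma. Without 1 library at a time, the repair list had 1 to 2 rises and 1 to 3 falls. Of 27 kept replication genes 1 rose and 2 fell, with Mcm6, a subunit of the replicative helicase, at 0.57 and 1 at 6 h, 3.04 and 3.37 at 24 h and 0.815 and 2.47 in control, and the proliferation marker gene Mki67, named after its values were seen, was under the limit on the mean. In cholesterol synthesis 1 of 22 rose and 1 fell: Sc5d, a desaturase near the end of the pathway, fell from 47.7 and 45.3 to 12.4 and 15.1, with 62.2 and 52.6 in control, at -1.70 ± 0.12 (SE, adjusted p = 0.00116) by limma. Of 26 kept antioxidant genes 5 rose and 1 fell, and Gpx4, which reduces lipid peroxides and has near-identical copies, rose from 129 and 115 to 213 and 188, a call lost after quantile normalization. Leaving out either 6 h library or replicate 1 of 24 h gave 3 rises and 0 falls in that list. Of 22 kept heat shock genes 3 rose and 0 fell, among them Hspe1, a mitochondrial co-chaperone, from 36.6 and 34.8 to 64.3 and 68.2. A single heat shock gene rose without replicate 1 of 6 h, without replicate 2 of 6 h or without replicate 2 of 24 h, and 9 rose without scaling.

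Among RNAs kept in the nucleus, Neat1, the scaffold of paraspeckles, was at 101 and 66.8 at 6 h, 569 and 680.4 at 24 h and 70.2 and 63.2 in control, and Malat1, a transcript of nuclear speckles, at 62.9 and 48.9, 142 and 127 and 57.6 and 55.7. Gas5, a host of small nucleolar RNAs, fell from 19.2 and 18.8 to 9.43 and 9.51. The cold-inducible RNA-binding protein gene Rbm3, which has near-identical copies, rose from 37.3 and 37.6 to 195 and 171, and Srsf4, a splicing regulator with opposite-strand overlap, fell from 12.8 and 13.5 to 2.44 and 2.64. Of 33 kept splicing factor genes 7 rose and 3 fell, with 4 and 1 without replicate 1 of 6 h, 4 and 1 without replicate 2 of 6 h and 3 and 1 without replicate 2 of 24 h. Of 7 kept skeletal muscle genes 4 rose, all of them at low levels, such as Mylpf, a myosin light chain, from 0.486 and 0.907 to 3.71 and 4.61, and 2 rose without replicate 1 and 2 without replicate 2 of 6 h. Calls in these paragraphs are limma's, adjusted over all 11409 genes.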
